A study of Mus musculus with 48 samples.

Results

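Interferon-stimulated genes are the genes that cells switch on when interferons bind their receptors, and 44 of them were followed here through thymic invariant natural killer T (iNKT) cells and through the conventional T cells of a mouse model of graft-versus-host disease. They were taken from a fixed list of symbols, which was chosen with earlier results of these data known. All 44 were found among the 52636 gene rows of the iNKT table and the 35661 rows of the donor T cell table. The list has 30 members of the antiviral type, among them the nucleic acid sensors, the transcription factors Irf7 and Irf9, the Oas, Ifit and Mx effectors and the Schlafen genes, and 14 members of the GTPase/MHC type, which comprise 10 guanylate-binding and immunity-related GTPases and 4 genes of the MHC class I pathway (Irf1, Nlrc5, Tap1 and B2m).

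Of the 48 samples labelled in the series, 44 libraries were used. Donor conventional CD4 and CD8 T cells of FVB/N mice were profiled by RNA sequencing before transplantation (day 0) and, at day 7, after transplantation into BALB/c mice, a major mismatch. Recipients were untreated or had also been given iNKT1, iNKT2 or iNKT17 cells. Each of these 10 groups had 3 libraries, and the labels give spleen and peripheral lymph nodes as their source. iNKT cells sorted from FVB/N thymi as iNKT1, iNKT2 or iNKT17 had 2 RNA and 2 ATAC libraries per sublineage, and total thymic iNKT cells from the single thymi of 2 FVB/N mice aged 8 weeks were profiled cell by cell. These defining genes fitted the labels: Cd4 was 401 to 1255 CPM in CD4 and 0.0361 to 44.1 CPM in CD8 libraries, Cd8a 0.536 to 7.46 and 357 to 975 CPM, and Tbx21 305 to 307 CPM in iNKT1, 0.305 to 19.7 in iNKT2 and 0.0965 to 0.233 in iNKT17 libraries. CPM are counts per 1000000 counts of the library, with library totals scaled by the TMM method.

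Type I interferons signal through the receptor chains Ifnar1 and Ifnar2 to a transcription factor complex that contains Stat2 and Irf9 and binds the interferon-stimulated response element (ISRE), whereas interferon gamma signals through Ifngr1 and Ifngr2 and acts on the gamma-activated sequence (GAS). Antiviral members such as Isg15, Mx1 and the Oas genes are best known as type I targets, and the guanylate-binding proteins, the immunity-related GTPases, Irf1 and Tap1 as targets that interferon gamma drives strongly, although most of them answer to both. In T cells these genes report exposure to interferon, and activated T and iNKT1 cells are themselves sources of interferon gamma.

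The promoters show how far the 2 types share these elements. RefSeq promoter windows (GRCm38.p6, from 250 bases before to 50 after the start) were given for 33 of the 44 members. The ISRE core, GAAA then NN then GAAA with N any base, searched on both strands, was present in 19 of those 33 genes (57.58%), against 3.99% of the 27025 genes with a window. The GAS core TTCNNNGAA was present in 8 (24.24%), against 9.55% of genes, and both in 7 (21.21%), against 0.54%; where a window holds both, their letters may overlap. By type, 11 of 22 antiviral genes (50.0%) and 8 of 11 GTPase/MHC genes (72.73%) held an ISRE core, and 3 (13.64%) and 5 (45.45%) a GAS core. The promoters of 8 members are shown as the 200 bases before the start, with capitals marking every core match on either strand, because the comparisons turn on these genes. Isg15 (chr4:156200819-156201018, minus strand) and Ifit3 (chr19:34583329-34583528, plus strand) have ISRE cores only. Oas1a (chr5:120907526-120907725, minus strand), Tgtp1 (chr11:48992247-48992446, minus strand) and Igtp (chr11:58199356-58199555, plus strand) have both. Irf1 (chr11:53769814-53770013, plus strand) has a GAS core only in the window shown, and B2m (chr2:122147487-122147686, plus strand) and Rsad2 (chr12:26456453-26456652, minus strand) have a single ISRE core.
Isg15: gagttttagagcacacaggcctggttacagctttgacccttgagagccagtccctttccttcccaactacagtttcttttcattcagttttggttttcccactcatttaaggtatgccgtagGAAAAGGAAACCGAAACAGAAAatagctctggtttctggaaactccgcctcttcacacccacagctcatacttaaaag
Ifit3: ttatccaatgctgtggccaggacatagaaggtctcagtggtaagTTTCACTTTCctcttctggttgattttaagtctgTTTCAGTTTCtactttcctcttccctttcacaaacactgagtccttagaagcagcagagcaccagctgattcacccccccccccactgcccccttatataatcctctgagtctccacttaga
Oas1a: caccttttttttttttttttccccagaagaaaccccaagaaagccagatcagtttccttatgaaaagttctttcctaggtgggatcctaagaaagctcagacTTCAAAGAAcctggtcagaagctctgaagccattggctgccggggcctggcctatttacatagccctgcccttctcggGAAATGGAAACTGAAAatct
Tgtp1: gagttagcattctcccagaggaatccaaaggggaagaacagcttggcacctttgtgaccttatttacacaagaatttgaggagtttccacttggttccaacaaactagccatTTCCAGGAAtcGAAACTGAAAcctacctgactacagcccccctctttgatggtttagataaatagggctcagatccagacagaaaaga
Igtp: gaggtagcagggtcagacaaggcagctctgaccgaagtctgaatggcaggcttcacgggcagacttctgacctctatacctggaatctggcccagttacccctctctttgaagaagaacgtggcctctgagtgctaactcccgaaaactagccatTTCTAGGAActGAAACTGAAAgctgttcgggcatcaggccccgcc
Irf1: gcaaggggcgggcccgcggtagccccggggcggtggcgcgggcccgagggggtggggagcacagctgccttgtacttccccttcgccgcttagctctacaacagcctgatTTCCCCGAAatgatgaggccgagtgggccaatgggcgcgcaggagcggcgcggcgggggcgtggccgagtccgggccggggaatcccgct
B2m: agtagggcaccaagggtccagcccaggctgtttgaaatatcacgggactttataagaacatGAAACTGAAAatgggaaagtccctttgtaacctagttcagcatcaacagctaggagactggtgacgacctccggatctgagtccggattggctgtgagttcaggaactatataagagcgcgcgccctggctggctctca
Rsad2: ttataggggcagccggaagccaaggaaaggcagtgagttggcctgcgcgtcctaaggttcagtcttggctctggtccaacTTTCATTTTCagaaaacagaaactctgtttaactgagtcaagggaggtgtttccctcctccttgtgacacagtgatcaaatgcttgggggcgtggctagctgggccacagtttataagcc

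Counted from the start, with -1 the last base before it and each match given by its leftmost base, Tgtp1 had a GAS core at -88 and an ISRE core at -77, and Igtp the same pair in the same order at -45 and -34. Isg15 had 3 overlapping ISRE matches from -78, and Ifit3 had 2 separate ones at -156 and -122. Oas1a held its ISRE matches at -20 and -14 and its GAS match at -98. Tap1, Irf7 and Cmpk2 had no match of either core in the window. A match is a stretch of letters and not a measured binding site.

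Totals ran from 25323879 to 37055182 counts in CD4, 26134241 to 33658426 in CD8 and 26811373 to 33688697 in iNKT RNA libraries, and from 13299586 to 42964216 over the ATAC regions. The labels do not say that bulk replicates came from separate animals, so p-values reflect only how far the libraries of a group lie apart, and that can be technical. 3 of the CD4 libraries (day 0 number 3, with iNKT2 number 1 and with iNKT17 number 3) stood apart with low counts of long genes relative to short ones. Several CD4 results are also given without them. In bulk RNA, fewer cells of a type and less RNA per cell cannot be told apart. Markers of other cells differed between the days: summed over 8 genes, B cell markers were 1041 to 2392 CPM at day 0 and 276 to 496 CPM in all day 7 libraries. In the same order, 10 myeloid markers were 480.1 to 1626 and 132 to 639.8 CPM, 6 erythroid markers 576 to 8999 and 0.555 to 17.8 CPM, and 6 markers of NK cells and innate lymphocytes, which activated T cells share, 65.9 to 786 and 1043 to 3883 CPM. The 8 dendritic cell markers that are not members were 119 to 279 and 43.2 to 164 CPM and the 8 stromal and epithelial markers 166 to 236 and 93.3 to 218 CPM. Their part in the changes between days was not tested.

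At day 7 after transfer into the mismatched host, untreated, more members had risen than fallen in both lineages. In CD4 cells 21 members rose and 1 fell from day 0 at an adjusted p under 0.05 (edgeR), where 17.4% of all 15031 genes tested rose and 18.2% fell. In CD8 cells 16 rose and 4 fell, where 30.9% of 14586 genes rose and 29.8% fell, so the rising share is near that of all genes. The median log2 fold change of the members was 0.79 in CD4 and 0.18 in CD8 cells, and that of all genes -0.08 and -0.05. Of the 30 antiviral members, 15 rose and 1 fell in CD4 cells, and 12 rose and 2 fell in CD8 cells. Of the 14 GTPase/MHC members, 6 rose in CD4 cells, and 4 rose and 2 fell in CD8 cells. Both lineages gave the same call for 15 members, 14 up and Rsad2 down. Without the 3 CD4 libraries that stood apart, 28 rose and 1 fell in CD4 cells, where 24.8% of genes rose and 22.4% fell. The 7 members added were Gbp4, Ifit1, Irf9, Isg15, Nlrc5, Trim30a and Usp18.

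**Figure D1:**
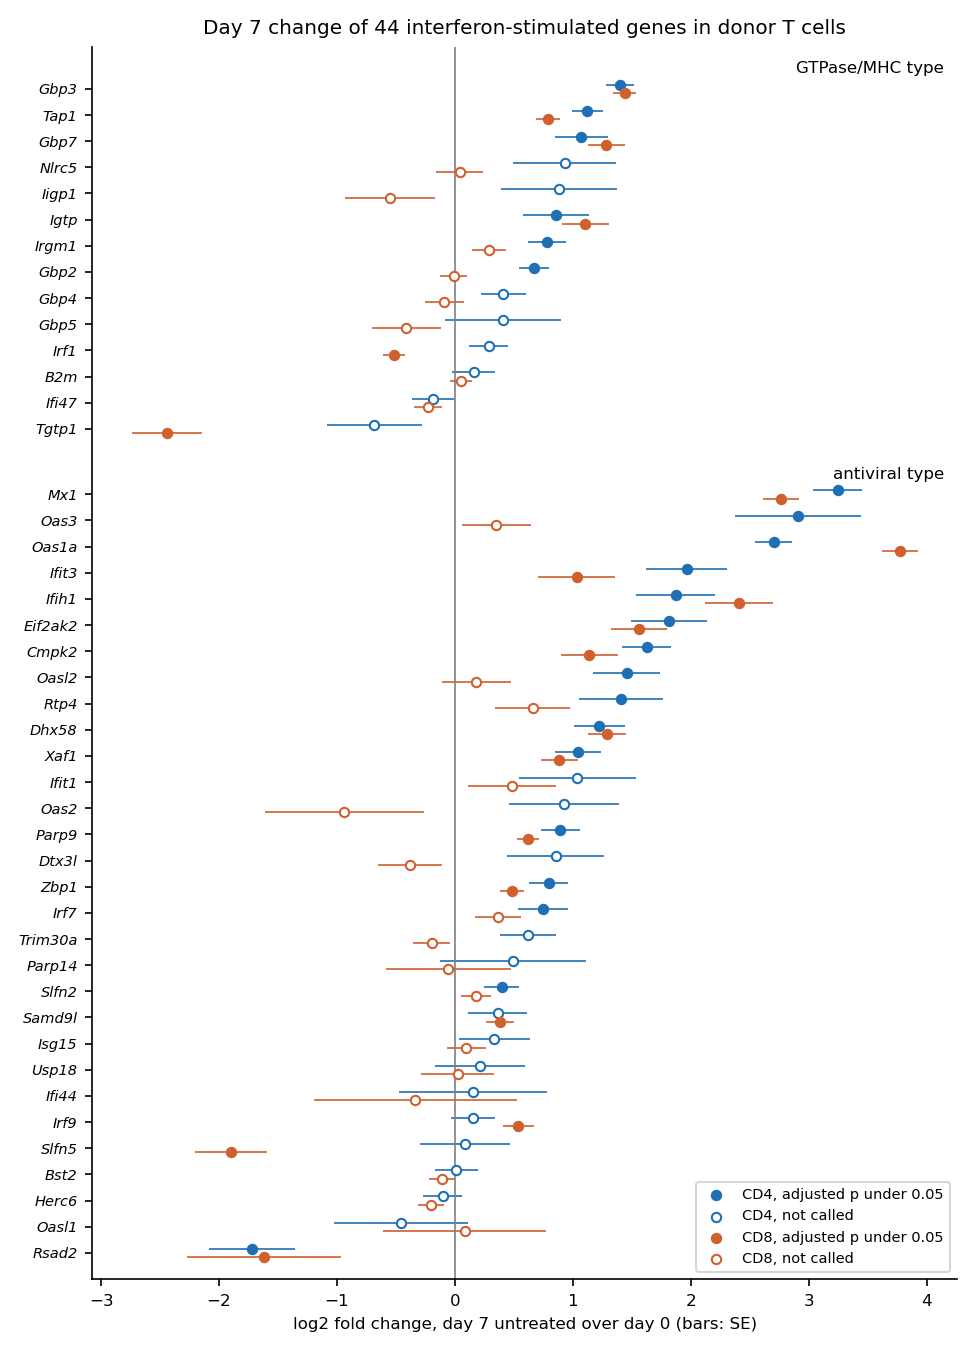
Log2 fold change (horizontal axis, bars ± SE) of each of the 44 members from day 0 to day 7 in untreated recipients, for CD4 (blue) and CD8 (orange) cells with 3 libraries per group and filled points at an adjusted p under 0.05. Mx1 and Oas1a lie far to the right in both lineages, Rsad2 to the left in both, and Tgtp1 and Slfn5 are filled on the left only in CD8 cells.

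Among the sensors and transcription regulators, Ifih1, which encodes the double-stranded RNA sensor MDA5, rose in both lineages. In CD4 cells it held 2.84, 2.52 and 1.52 CPM at day 0 and 7.20, 10.7 and 8.28 CPM at day 7 (log2 fold change 1.87 ± 0.34 (SE), adjusted p = 6.1e-04). In CD8 cells it held 1.70, 1.45 and 1.48 CPM at day 0 and 9.97, 10.1 and 4.96 CPM at day 7 (2.41 ± 0.29 (SE), adjusted p = 3.6e-06). The days did not overlap in either lineage. Dhx58, a relative of Ifih1 without signalling domains, rose by 1.22 in CD4 and 1.29 in CD8 cells on the log2 scale. Zbp1, a sensor of Z-form nucleic acid, rose by 0.79 and 0.49. Irf7, the amplifier of type I interferon production, held 58.7, 57.1 and 78.3 CPM at day 0 and 95.9, 83 and 158 CPM at day 7 in CD4 cells (0.75 ± 0.21 (SE), adjusted p = 0.014), a rise without overlap. Its CD8 values were 59.3, 56.3 and 63.9 CPM at day 0 and 72.5, 51.3 and 112 CPM at day 7, where the days overlapped (0.37 ± 0.20 (SE), adjusted p = 0.12). The CD4 call of Irf7 was lost without untreated library 3, the highest of its group, and in a fit of the compared groups alone. Irf9, the DNA-binding part of the type I complex, held 92.1, 88.8 and 93.3 CPM at day 0 and 147, 104 and 154 CPM at day 7 in CD8 cells (0.54 ± 0.13 (SE), adjusted p = 0.0026), a rise without overlap. In CD4 cells the log2 fold change of Irf9 was 0.15 (adjusted p = 0.57), and 0.40 without the 3 libraries.

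Among the antiviral effectors, Mx1, a dynamin-like GTPase that blocks viruses, had the largest increase of the members in CD4 cells. Its CD4 values were 3.01, 3.31 and 4.59 CPM at day 0 and 37.7, 33.8 and 35.1 CPM at day 7 (3.25 ± 0.21 (SE), adjusted p = 8.8e-08). Its CD8 values were 6.10, 5.27 and 7.88 CPM at day 0 and 47.2, 37.5 and 48.2 CPM at day 7 (2.76 ± 0.15 (SE), adjusted p = 8.9e-10). The highest day 0 library lay far below the lowest day 7 library in both lineages. Oas1a encodes an oligoadenylate synthetase, which activates the RNase that degrades viral RNA. CD4 cells held Oas1a at 8.67, 8.98 and 9.25 CPM at day 0 and 57.2, 62.9 and 61 CPM at day 7 (2.70 ± 0.16 (SE), adjusted p = 5.2e-08). CD8 cells held it at 2.39, 2.78 and 2.54 CPM at day 0 and 31.6, 32.6 and 42.9 CPM at day 7 (3.77 ± 0.15 (SE), adjusted p = 3.8e-11), the largest increase of any member in CD8 cells. The days were apart in both lineages, and CD8 cells began lower. Oas3, of the same family, held 8.602, 8.24 and 1.09 CPM at day 0 and 44.9, 41.5 and 53.9 CPM at day 7 in CD4 cells (2.91 ± 0.53 (SE), adjusted p = 7.3e-04), with the lowest value in day 0 library 3. In CD8 cells it held 17.32, 11.8 and 17.8 CPM at day 0 and 12, 18.2 and 30.6 CPM at day 7 (0.35 ± 0.29 (SE), adjusted p = 0.31), where the days overlapped. The counting rule for reads that fit 2 near-identical genes is not given in the sources used here, so the values of Oas1a (with Oas1g), Ifit3 (with Ifit3b), Tgtp1 (with Tgtp2), Iigp1, Trim30a and the Gbp genes are uncertain in that respect.

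Ifit3, part of the Ifit complex that holds back viral RNA, held 3.29, 3.28 and 5.38 CPM at day 0 and 13.6, 10.3 and 24.2 CPM at day 7 in CD4 cells (1.97 ± 0.35 (SE), adjusted p = 5.3e-04), without overlap. In CD8 cells it held 6.01, 5.27 and 6.03 CPM at day 0 and 12.2, 5.84 and 18.1 CPM at day 7 (1.03 ± 0.33 (SE), adjusted p = 0.014). The second CD8 library of day 7 lay within the day 0 range, and the call was lost without day 7 library 3. Eif2ak2, the kinase PKR that stops translation on sensing double-stranded RNA, rose by 1.82 in CD4 and 1.56 in CD8 cells. Cmpk2 and Rsad2 are neighbouring genes, the first a mitochondrial nucleotide kinase and the second the antiviral enzyme viperin, and they moved in opposite directions. Cmpk2 held 8.44, 8.18 and 7.79 CPM at day 0 and 21.3, 21.4 and 35.3 CPM at day 7 in CD4 cells (1.63 ± 0.21 (SE), adjusted p = 3.3e-05). In CD8 cells Cmpk2 held 7.65, 7.83 and 7.71 CPM at day 0 and 22, 10.0 and 20.0 CPM at day 7 (1.14 ± 0.24 (SE), adjusted p = 8.9e-04). The days were apart in both lineages. Rsad2 held 12.2, 7.31 and 12.1 CPM at day 0 and 3.21, 2.75 and 3.94 CPM at day 7 in CD4 cells (-1.72 ± 0.36 (SE), adjusted p = 0.0021), a fall without overlap. In CD8 cells Rsad2 held 2.19, 1.51 and 2.43 CPM at day 0 and 0.299, 0.221 and 1.53 CPM at day 7 (-1.62 ± 0.65 (SE), adjusted p = 0.044), where the days overlapped and the call was lost in 5 of the alternatives.

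Isg15, a ubiquitin-like modifier, was not called in either lineage. Its CD4 values were 7.97, 8.07 and 19.7 CPM at day 0 and 16.7, 11.9 and 17.8 CPM at day 7 (0.33 ± 0.30 (SE), adjusted p = 0.42). Day 0 library 3 exceeded every day 7 library, and without it Isg15 rose by 0.90 (edgeR adjusted p = 0.0034). Its CD8 values were 7.68, 10.3 and 7.65 CPM at day 0 and 8.81, 8.05 and 10.9 CPM at day 7 (0.10 ± 0.17 (SE), adjusted p = 0.63), with overlapping days. Usp18, which removes Isg15 and dampens the type I receptor, gave 0.21 in CD4 and 0.02 in CD8 cells, neither called. Parp9, an ADP-ribosyltransferase, rose in both lineages (0.89 in CD4 and 0.62 in CD8 cells), as did Xaf1, which promotes cell death (1.04 in CD4 and 0.88 in CD8 cells). Oasl2 rose in CD4 cells by 1.46, Rtp4 by 1.41, and Samd9l, a brake on growth and translation, in CD8 cells by 0.38. Ifit1, Ifi44, Oas2, Oasl1, Bst2, Trim30a, Parp14, Dtx3l and Herc6 passed the threshold in neither lineage, with log2 fold changes from -0.94 (Oas2, CD8) to 1.04 (Ifit1, CD4).

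The Schlafen genes restrain lymphocyte growth and viral translation. Slfn2, needed to keep T cells quiescent, held 696, 672 and 837 CPM at day 0 and 1039.5, 951 and 1008 CPM at day 7 in CD4 cells (0.40 ± 0.15 (SE), adjusted p = 0.049), a call lost in 5 of the 6 leave-one-out fits. Its CD8 change of 0.18 was not called. Slfn5 in CD4 cells held 42.3, 42.4 and 25 CPM at day 0 and 47.9, 45.6 and 26.9 CPM at day 7 (0.09 ± 0.38 (SE), adjusted p = 0.88). Slfn5 in CD8 cells held 22.5, 16.6 and 25 CPM at day 0 and 5.59, 6.35 and 5.51 CPM at day 7 (-1.90 ± 0.30 (SE), adjusted p = 7.3e-05). Every CD8 library of day 7 was below every one of day 0, while the CD4 days overlapped.

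Of the 10 GTPases, Gbp2, Gbp3, Gbp7, Igtp and Irgm1 rose in CD4 cells. In CD8 cells Gbp3, Gbp7 and Igtp rose and Tgtp1 fell. Gbp3, a guanylate-binding protein of the family that attacks the membranes around intracellular pathogens, held 41.2, 42.4 and 37 CPM at day 0 and 109.7, 113 and 106 CPM at day 7 in CD4 cells (1.40 ± 0.12 (SE), adjusted p = 7.9e-07). CD8 cells held Gbp3 at 49.4, 47.5 and 40.6 CPM at day 0 and 140.4, 121 and 117 CPM at day 7 (1.44 ± 0.10 (SE), adjusted p = 6.6e-09). It was the most even rise of the type, without overlap in either lineage. Gbp2 of the same family held 79.1, 78 and 88.3 CPM at day 0 and 132, 119 and 153 CPM at day 7 in CD4 cells (0.67 ± 0.13 (SE), adjusted p = 8.8e-04), again apart. CD8 cells held Gbp2 at 109, 118 and 94.9 CPM at day 0 and 129, 88.6 and 106 CPM at day 7 (-0.01 ± 0.12 (SE), adjusted p = 0.94), where the days overlapped.

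Igtp and Tgtp1 are immunity-related GTPases, which act on the vacuoles of intracellular pathogens. Igtp held 172, 174 and 348 CPM at day 0 and 439, 374 and 484 CPM at day 7 in CD4 cells (0.86 ± 0.28 (SE), adjusted p = 0.028), a call lost in 5 alternatives. CD8 cells held Igtp at 127, 145 and 116 CPM at day 0 and 378, 206 and 266 CPM at day 7 (1.11 ± 0.20 (SE), adjusted p = 2.1e-04). The days were apart in both lineages, although CD4 day 0 library 3 was well above its group. Tgtp1 in CD8 cells held 148, 178 and 158 CPM at day 0 and 47.7, 17 and 25.8 CPM at day 7 (-2.45 ± 0.30 (SE), adjusted p = 6.4e-06), a fall without overlap. Tgtp1 in CD4 cells held 93.9, 96.9 and 259 CPM at day 0 and 82.6, 69.5 and 137 CPM at day 7, with overlapping days (-0.68 ± 0.40 (SE), adjusted p = 0.21). The promoters of both genes carry a GAS and an ISRE core in the same order, and in CD8 cells the genes changed in opposite directions.

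In the MHC class I pathway, Tap1, which with Tap2 carries peptides into the endoplasmic reticulum, rose in both lineages. In CD4 cells Tap1 held 284, 281 and 254 CPM at day 0 and 632, 560.5 and 651 CPM at day 7 (1.12 ± 0.13 (SE), adjusted p = 1.6e-05). CD8 cells held Tap1 at 328, 283 and 329.7 CPM at day 0 and 583, 509 and 560.0 CPM at day 7 (0.79 ± 0.10 (SE), adjusted p = 1.1e-05). The days were apart in both. B2m, the light chain of MHC class I molecules, held 2249, 2114 and 1373 CPM at day 0 and 2511, 2113 and 2006 CPM at day 7 in CD4 cells (0.16 ± 0.18 (SE), adjusted p = 0.53), with the lowest value in day 0 library 3. CD8 cells held B2m at 2406, 2322 and 2397 CPM at day 0 and 2548, 2497 and 2464 CPM at day 7 (0.05 ± 0.09 (SE), adjusted p = 0.64), slightly higher at day 7 in every library but not called. Irf1, a transcription factor that interferon gamma induces, fell in CD8 cells, from 461, 429.7 and 403 CPM to 289.9, 276 and 353 CPM (-0.51 ± 0.10 (SE), adjusted p = 2.7e-04), without overlap. CD4 cells held Irf1 at 317, 316 and 201 CPM at day 0 and 369, 317 and 365 CPM at day 7 (0.29 ± 0.17 (SE), adjusted p = 0.20). Nlrc5, the transactivator of MHC class I genes, was not called (0.93 in CD4 and 0.04 in CD8 cells).

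**Figure D2:**
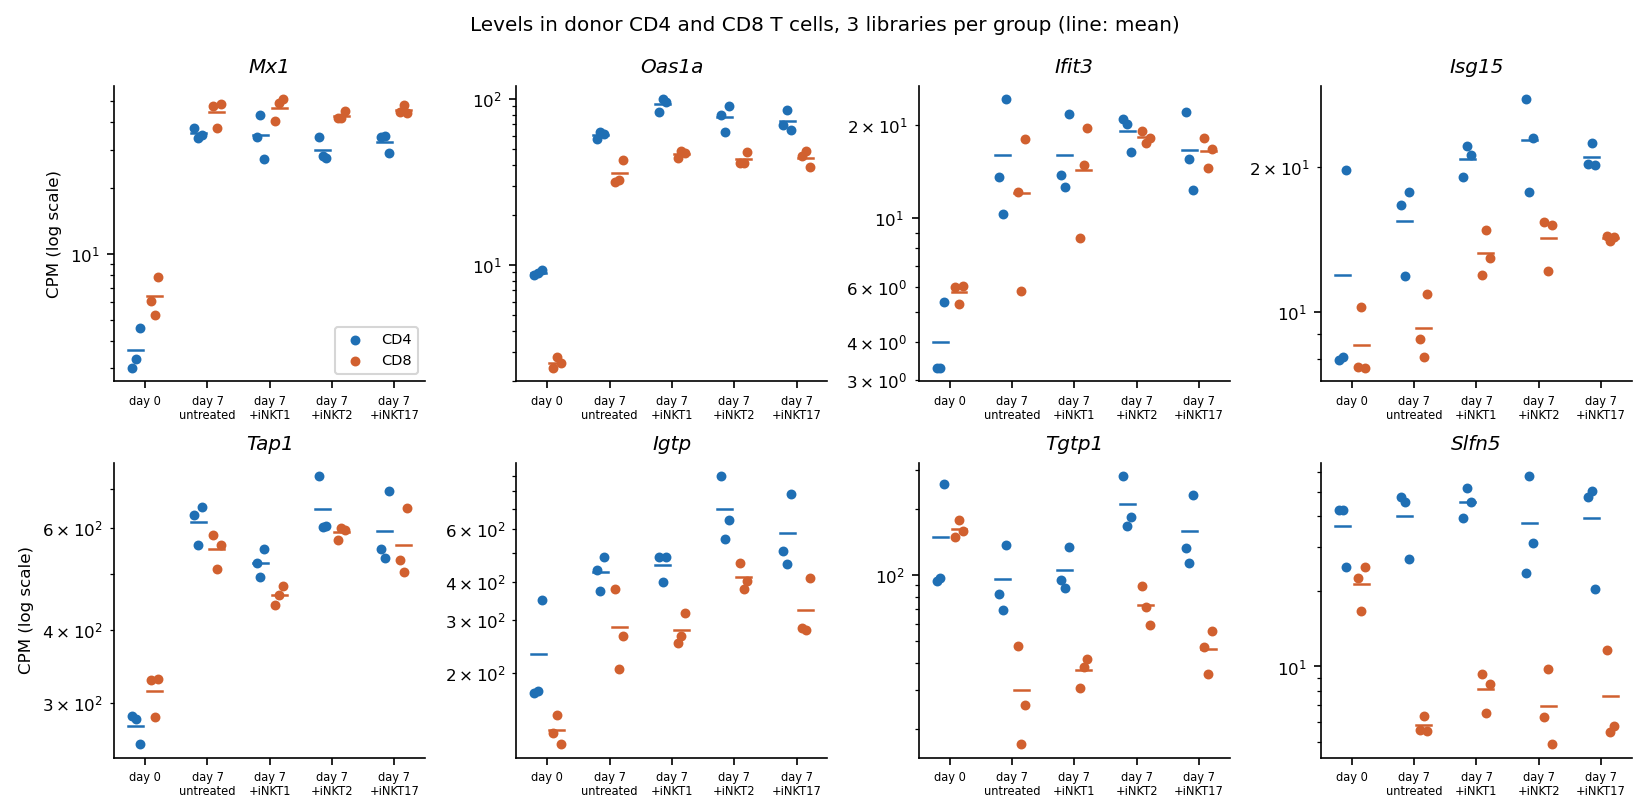
CPM (log axis) of 8 members in donor CD4 (blue) and CD8 (orange) cells for each of 5 groups, 3 libraries per group as points and the mean as a line. Mx1 and Oas1a step up between day 0 and all day 7 groups, Tgtp1 and Slfn5 step down in CD8 cells, and the CD8 points of Igtp and Tgtp1 with iNKT2 lie above the untreated ones without overlap, which no adjusted p under 0.05 accompanied.

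The signalling genes around the members came from lists set apart from them. Ifng itself held 5.22, 5.97 and 2.54 CPM at day 0 and 42.3, 47.4 and 49.6 CPM at day 7 in CD4 cells (3.29 ± 0.34 (SE), adjusted p = 5.7e-06) and 8.89, 10.9 and 11.3 CPM at day 0 and 59.6, 64.5 and 77.3 CPM at day 7 in CD8 cells (2.68 ± 0.25 (SE), adjusted p = 4.8e-07), and was the 1 of 6 interferon ligand genes high enough to be tested. Of 8 tested receptor and kinase genes, 3 rose and 3 fell in CD4 cells and 1 rose and 3 fell in CD8 cells. Ifngr1 rose (2.30 in CD4 and 1.82 in CD8 cells), whereas Ifngr2, the chain that limits the response to interferon gamma in T cells, fell by 4.16 and 4.80 on the log2 scale, and Ifnar2 also fell (-1.37 in CD4 and -2.14 in CD8 cells). Ifnar1 (0.26 in CD4 and -0.14 in CD8 cells) and Stat2 (0.15 in CD4 and 0.23 in CD8 cells) were not called. Socs1, the feedback inhibitor of both receptors, rose in CD4 (0.69 ± 0.25 (SE), adjusted p = 0.045) and fell in CD8 cells (-0.88 ± 0.14 (SE), adjusted p = 8.4e-05), and the difference between them passed the threshold as well (-1.59 ± 0.30 (SE), adjusted p = 0.0012). The shares of all genes that changed by day 7 are given above. Of 40 further interferon response genes tested, 15 rose and 4 fell in CD4 cells and 18 rose and 9 fell in CD8 cells. Ly6a, the surface antigen Sca-1, was among those that rose (4.50 in CD4 and 5.67 in CD8 cells).

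CD8 cells held several members below the CD4 level at day 7, in 1 fit of all 30 donor libraries. At day 0, 4 members were higher in CD8 cells (Irf1, Oas3, Mx1 and Gbp2) and 5 lower (Irf9, Rsad2, Oas1a, Igtp and Slfn2), where 4.07% of 15601 genes were higher and 4.52% lower. The CD8 minus CD4 log2 difference was -1.80 ± 0.15 (SE) for Oas1a, -2.36 ± 0.52 for Rsad2 and 0.63 ± 0.13 for Irf1. In a fit of the compared groups alone, Rsad2 and Oas1a were the 2 called, and without the 3 CD4 libraries 5 were, with Irf9, Oas3, Igtp and Slfn2 lost. Mx1 and Gbp2 differed by 0.83 ± 0.18 and 0.39 ± 0.12, and Isg15, Ifit3, Irf7, Tap1 and B2m, not called, by -0.48, 0.54, -0.11, 0.20 and 0.31. At day 0 the markers of other cells also differed between CD4 and CD8 libraries, at 2994 to 8999 and 576 to 763 CPM for erythroid cells, 119 to 152 and 216 to 279 CPM for dendritic cells and 65.9 to 130.3 and 632 to 786 CPM for NK cells. Of the dendritic cell markers, Ccr9 alone held 9.58 to 12.6 CPM in CD4 and 145 to 201 CPM in CD8 libraries. Xcr1 and Clec9a were also higher in CD8 libraries, and Flt3, Zbtb46, Tcf4 and Itgax were lower there. The part of these marker lists in the day 0 differences was not tested.

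At day 7 in untreated recipients no member was higher in CD8 cells and 11 were lower, where 7.78% of genes were higher and 6.67% lower. By DESeq2 none was higher and 13 were lower, where 5.8% and 4.81% of genes were. At an unadjusted p under 0.05, 1 was higher and 22 were lower, where 13.3% and 12.9% of genes were. Leaving out 1 library gave 7 to 14 called members. With the replicate number as a block in a fit of the 6 compared libraries, none was higher and 18 were lower, where 9.73% and 9.13% of genes were. Whether the numbers pair these libraries was left undecided, with correlations of -0.29, 0.50 and 0.40 between same-numbered CD4 and CD8 libraries. An index of gene length, the mean log2 deviation of the genes with the longest spans minus that of the shortest, ran from 0.05 to 0.26 in untreated CD4 and -0.21 to 0.01 in untreated CD8 libraries at day 7, without overlap. Dendritic cell markers were 90.2 to 129.7 and 142 to 164 CPM, stromal markers 176 to 218 and 96.2 to 135 CPM and NK cell markers 1273 to 1589 and 2551 to 3489 CPM in CD4 and CD8 libraries. Of the dendritic cell markers, Itgax alone held 10.1 to 11.7 CPM in CD4 and 84.9 to 115 CPM in CD8 libraries. Ccr9 went the other way, at 45.0 to 83.1 and 12.6 to 28.3 CPM. The part of the index and of these markers in the difference was not tested. The median CD8 minus CD4 difference of the members was -0.42 at day 7 and -0.03 at day 0, against -0.02 and -0.01 for all genes.

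Of the 11 members lower in CD8 cells at day 7, 8 are of the antiviral type and 3 GTPases. Slfn5 held 47.9, 45.6 and 26.9 CPM in CD4 and 5.59, 6.35 and 5.51 CPM in CD8 cells (-2.79 ± 0.38 (SE), adjusted p = 1.2e-05). Oasl2, a member of the oligoadenylate synthetase family, held 8.25, 7.46 and 10.9 and 3.26, 1.58 and 3.27 CPM (-1.72 ± 0.29 (SE), adjusted p = 1.4e-04). Oas1a held 57.2, 62.9 and 61 and 31.6, 32.6 and 42.9 CPM (-0.76 ± 0.14 (SE), adjusted p = 3.6e-04), so that it was lower in CD8 cells on both days. The lineages did not overlap for any of the 3 genes. Tgtp1 differed by -1.67 ± 0.38 (SE), adjusted p = 0.0033, and Isg15, at 16.7, 11.9 and 17.8 CPM in CD4 and 8.81, 8.05 and 10.9 CPM in CD8 cells, by -0.74 ± 0.25 (SE), adjusted p = 0.048. The call of Isg15 was lost in 6 alternatives. Oas2, Rsad2, Usp18, Iigp1, Irgm1 and Slfn2 were the others, with differences from -2.52 to -0.57. Ifit3, Irf7, Irf1, Gbp2, Igtp, Tap1 and B2m were not called, with differences of -0.42, -0.52, -0.19, -0.32, -0.61, -0.16 and 0.18.

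Whether the day 7 change itself differed between the lineages was tested as an interaction. Oas1a increased more in CD8 cells (difference of log2 changes 1.04 ± 0.20 (SE), adjusted p = 0.0016), and 6 members changed less or in the downward direction in CD8 cells (Irf1, Oas3, Oasl2, Gbp2, Tgtp1 and Slfn5), where 4.49% of genes had a positive and 4.29% a negative difference. Slfn5 gave -2.01 ± 0.51 (SE), adjusted p = 0.013, Tgtp1 -1.78 ± 0.53 (SE), adjusted p = 0.035 and Irf1 -0.83 ± 0.19 (SE), adjusted p = 0.0059. In a fit of the 4 compared groups alone, 2 were called, Oas1a and Slfn5. The call of Oasl2 was lost in 9 and that of Tgtp1 in 10 of 17 alternatives, most of them leaving out 1 library. The change was not shown to differ between the lineages for Isg15, at -0.26 (adjusted p = 0.69), Ifit3, at -0.96 (adjusted p = 0.24), Irf7, at -0.40 (adjusted p = 0.43), Igtp, at 0.23 (adjusted p = 0.74), Tap1, at -0.36 (adjusted p = 0.17) and B2m, at -0.13 (adjusted p = 0.73). Without the 3 CD4 libraries Isg15 rose less in CD8 cells (-0.83, adjusted p = 0.042).

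Donor T cells of recipients given iNKT cells had most members slightly above the untreated level at day 7, but no single member passed the threshold. No member was called by edgeR in any of the 12 contrasts, which were 6 of a treatment with untreated recipients and 6 between treatments. The 3 treatments of a lineage share the same 3 untreated libraries, so their results are not independent of each other. Against untreated recipients, edgeR called 0.0% of all genes in CD4 cells for each treatment, and 0.158%, 0.11% and 0.206% in CD8 cells with iNKT1, iNKT2 and iNKT17. At an unadjusted p under 0.05, CD8 cells had 10, 16 and 9 members higher with iNKT1, iNKT2 and iNKT17 and 1 lower with each. Of all genes, 6.45%, 7.4% and 7.36% were higher and 5.88%, 5.44% and 6.16% lower. CD4 cells had 6, 13 and 8 higher and 0 lower. Of all genes, 3.54%, 4.49% and 4.12% were higher and 3.17%, 3.52% and 3.67% lower. The median log2 difference of the members lay between 0.25 and 0.28 in all 6, against 0.00 to 0.02 for all genes, and 33 to 37 of 44 lay above 0.

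DESeq2 called 2, 7 and 2 members higher in CD8 cells with iNKT1, iNKT2 and iNKT17, where it called 0.845%, 1.03% and 1.14% of genes higher. They were Zbp1 and Herc6 with iNKT1, Herc6 and Isg15 with iNKT17, and Herc6, Usp18, Isg15, Iigp1, Ifi47, Tgtp1 and Gbp4 with iNKT2. In CD4 cells it called Oas1a with iNKT1, Ifi44 and Ifi47 with iNKT2, and Ifi44 with iNKT17, where 0.229%, 0.253% and 0.364% of genes were called higher. Between the treatments DESeq2 called no member. Ifi44, which was chosen here for its size, gave the largest CD4 differences with each treatment, at 0.833, 0.418 and 0.497 CPM untreated, 0.735, 1.77 and 5.14 with iNKT1, 1.40, 2.59 and 3.98 with iNKT2 and 3.41, 2.76 and 2.03 with iNKT17. The untreated and iNKT1 libraries overlapped, and the other 2 groups lay above the untreated one. In edgeR its log2 differences were 2.13, 2.18 and 2.24, with adjusted p = 0.45, 0.36 and 0.27.

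Isg15 and Herc6 were the most even of these. Isg15 held 8.81, 8.05 and 10.9 CPM in untreated CD8 cells, 11.9, 14.8 and 13 with iNKT1, 15.4, 12.2 and 15.2 with iNKT2 and 14.4, 14.1 and 14.3 with iNKT17. Every treated library was above every untreated one, and the edgeR differences were 0.53 (adjusted p = 0.19), 0.63 (adjusted p = 0.13) and 0.62 (adjusted p = 0.11). In CD4 cells, Isg15 held 16.7, 11.9 and 17.8 CPM untreated, 19.1, 22.2 and 21.2 with iNKT1, 27.7, 17.8 and 23.1 with iNKT2 and 20.3, 22.4 and 20.3 with iNKT17, with differences of 0.44 (adjusted p = 0.90), 0.56 (adjusted p = 0.68) and 0.46 (adjusted p = 0.82). Herc6, an E3 ligase for Isg15, held 38.6, 30.5 and 34.5 CPM in untreated CD8 cells and 40.2, 50.7 and 48.3, 46.9, 44.1 and 47.6 and 46.2, 49.4 and 45.2 CPM with iNKT1, iNKT2 and iNKT17. Here too all 9 treated libraries lay above the 3 untreated ones, with differences of 0.43 (adjusted p = 0.11), 0.42 (adjusted p = 0.12) and 0.44 (adjusted p = 0.10).

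At an unadjusted p under 0.05, CD8 cells with iNKT2 had 9 of the 14 GTPase/MHC members and 7 of the 30 antiviral members higher, where 7.4% of all genes were. CD4 cells with iNKT2 had 7 of 14 and 6 of 30, where 4.49% of genes were. That CD4 group holds library 1, which stood apart, and without it and the other 2 such libraries the CD4 counts were 8 of 14 and 12 of 30, where 5.38% of genes were higher and 6.18% lower. In the same refit CD4 cells with iNKT17 had 4 of 14 and 11 of 30 higher, with the share of all genes not given here. With all libraries these counts were 4 of 14 and 4 of 30, and those of CD4 cells with iNKT1 0 of 14 and 6 of 30. CD8 cells had 2 of 14 and 8 of 30 higher with iNKT1, and 3 of 14 and 6 of 30 with iNKT17. The shares of all genes for the fits with all libraries are given above. Tgtp1 held 47.7, 17 and 25.8 CPM in untreated CD8 cells and 89.4, 71.7 and 59.5 CPM with iNKT2 (1.29 ± 0.29 (SE), adjusted p = 0.094), with no overlap. In CD4 cells it held 82.6, 69.5 and 137 and 283, 167 and 184 CPM (1.13 ± 0.41 (SE), adjusted p = 0.47), again with no overlap. Without untreated library 1, the highest of its group, Tgtp1 passed the threshold in CD8 cells (1.78, adjusted p = 0.024), the only such case among the leave-one-out fits of the treatments. Iigp1, the GTPase Irga6, held 3.92, 2.18 and 1.85 and 7.47, 7.22 and 8.27 CPM in CD8 cells (1.53 ± 0.38 (SE), adjusted p = 0.11), and Gbp4 242, 150.1 and 224 and 351, 293 and 339 CPM (0.68 ± 0.17 (SE), adjusted p = 0.11). Igtp held 378, 206 and 266 CPM untreated, 251, 264 and 315 with iNKT1 and 461, 381 and 402 with iNKT2 in CD8 cells. The iNKT2 values lay above both other groups, at 0.56 (adjusted p = 0.24) over untreated. Gbp2 differed with iNKT2 by 0.37 (adjusted p = 0.20) in CD8 and 0.43 (adjusted p = 0.37) in CD4 cells.

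The MHC class I genes stayed nearer to the untreated level. With iNKT2, Tap1 differed by 0.10 (adjusted p = 0.70) in CD8 and 0.08 (adjusted p = 0.91) in CD4 cells, B2m by -0.15 (adjusted p = 0.52) and 0.04 (adjusted p = 0.98), and Irf1 by 0.17 (adjusted p = 0.48) and 0.21 (adjusted p = 0.80). With iNKT1 Tap1 was lower in CD8 cells, at 442, 459.6 and 476 CPM against 583, 509 and 560.0 untreated, with no overlap (-0.25 ± 0.10 (SE), adjusted p = 0.33). Of the antiviral members with fixed reporting, Ifit3 differed by 0.27, 0.61 and 0.45 in CD8 cells and by 0.02, 0.26 and 0.07 in CD4 cells with iNKT1, iNKT2 and iNKT17. Irf7 differed by 0.04, 0.32 and 0.30 in CD8 and by 0.14, 0.35 and 0.32 in CD4 cells. For the same order of treatments, Gbp2 with iNKT1 and iNKT17 gave 0.20 and 0.21 in CD8 and 0.26 and 0.34 in CD4 cells, and Igtp -0.02 and 0.19, and 0.09 and 0.45. None of these passed the threshold.

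Set directly beside iNKT1, iNKT2 gave higher values at an unadjusted p under 0.05 for 4 members in CD8 cells (Tap1, Tgtp1, Igtp and Ifi47) and 6 in CD4 cells (Gbp4, Igtp, Irgm1, Tgtp1, Ifi47 and Tap1), all of the GTPase/MHC type, and lower values for 3 (Zbp1, Eif2ak2 and Samd9l) and 1 (Eif2ak2) of the antiviral type, where 5.39% and 6.48% of genes in CD8 and 1.92% and 1.49% in CD4 cells were higher and lower. In CD4 cells, iNKT2 library 1, which stood apart, was the highest of its group for 5 of the 6, all but Gbp4, and the lowest for Eif2ak2. Igtp held 898, 553 and 643 CPM in the CD4 libraries with iNKT2 against 484, 399 and 483 with iNKT1, and Tgtp1 283, 167 and 184 against 95.6, 87.5 and 135. Without the libraries that stood apart, 3 of the 6 (Gbp4, Igtp and Tgtp1) were higher and no member lower in CD4 cells at that p, where 2.58% and 2.31% of genes were. Of all genes, edgeR called 0% in CD8 and 0% in CD4 cells. The adjusted p was 0.35 for Tap1 (0.36 ± 0.10) and 0.35 for Tgtp1 (0.99 ± 0.29) in CD8 cells. For iNKT17 against iNKT1, 1 member was higher and 3 lower in CD8 cells and 0 and 1 in CD4 cells at that p, where 4.27% and 5.02% and 1.08% and 1.14% of genes were. Without the libraries that stood apart, no member was higher or lower in CD4 cells in that contrast. For iNKT17 against iNKT2 the counts were 0 and 2 in CD8 cells and 0 and 0 in CD4 cells, where 1.43% and 2.24% and 0.812% and 1.03% of genes were. At an adjusted p under 0.05, edgeR called 0% of genes in each of these 4. Summed myeloid markers were 200.4 to 329 CPM in untreated CD8 libraries and 229 to 275, 313 to 422 and 163 to 254 CPM with iNKT1, iNKT2 and iNKT17. In CD4 libraries they were 186 to 196 CPM untreated and 266 to 639.8, 236 to 444 and 132 to 360.2 CPM. Dendritic cell markers summed to 142 to 164 CPM untreated and 132 to 141, 100.4 to 148 and 96.3 to 137 CPM with iNKT1, iNKT2 and iNKT17 in CD8 libraries. In CD4 libraries they were 90.2 to 129.7 CPM untreated and 60.9 to 61.2, 55.6 to 63.9 and 43.2 to 56.6 CPM with iNKT1, iNKT2 and iNKT17, lower in every treated than in every untreated library. Of these markers, Ccr9 alone held 45.0 to 83.1 CPM untreated and 18.7 to 30.2, 20.7 to 36.0 and 16.9 to 25.7 CPM in that order. Tcf4 held 11.2 to 14.3 CPM untreated and 4.84 to 7.97, 3.60 to 6.28 and 2.51 to 7.96 CPM. Siglech, Flt3 and Clec9a held up to 0.51 CPM in the CD4 libraries of day 7. Stromal and epithelial markers were 176 to 218 CPM untreated and 133 to 159, 144 to 172 and 142 to 168 CPM with iNKT1, iNKT2 and iNKT17 in CD4 libraries. The index of gene length given above also differed between the treatments. In CD8 libraries it ran from -0.21 to 0.01 untreated and -0.11 to 0.08, -0.29 to -0.08 and -0.31 to -0.02 with iNKT1, iNKT2 and iNKT17. In CD4 libraries it ran from 0.05 to 0.26 untreated and 0.09 to 0.25, -0.43 to 0.33 and -0.29 to 0.18 in the same order. The part of these 3 marker lists and of the index in the treatment differences was not tested.

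**Figure D3:**
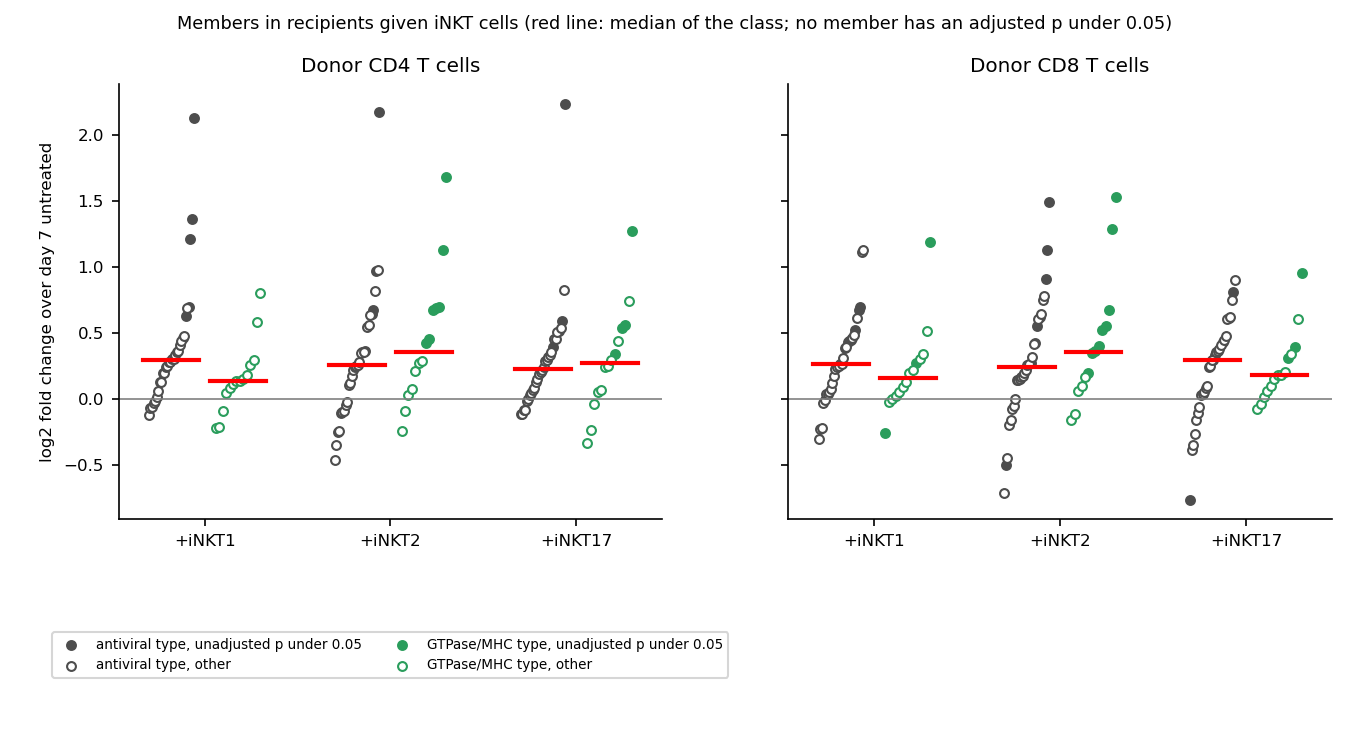
Log2 fold change of each member over untreated recipients at day 7 for the 3 treatments, in CD4 (left) and CD8 cells (right), with antiviral members in dark grey, GTPase/MHC members in green, the median of each type as a red line and filled points at an unadjusted p under 0.05. Both medians lie above 0 in every column, and the filled green points gather under iNKT2, but no point passed an adjusted p of 0.05.

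Among sorted thymic iNKT cells the comparison is between sublineages, with 2 RNA libraries each. edgeR called no member in any of the 3 contrasts, where it called 1.29% of 12372 genes for iNKT2 against iNKT1, 2% for iNKT17 against iNKT1 and 0.711% for iNKT17 against iNKT2. At an unadjusted p under 0.05, edgeR found 3 members higher and 2 lower in iNKT2 than iNKT1 cells, 0 and 9 in iNKT17 than iNKT1, and 0 and 9 in iNKT17 than iNKT2, where 3.47% and 4.1% of genes were higher and lower in the first contrast and 5.44% and 4.08% were lower in the other two. DESeq2 called 2, 8 and 9 members, where it called 6.66%, 10.3% and 8.37% of genes. The 2 libraries of a sublineage could differ widely, with one near 0 and the other far above it.

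Irf1 was the most even of the members with a difference. It held 378 and 293 CPM in iNKT1, 359 and 368 CPM in iNKT2 and 161 and 189 CPM in iNKT17 cells. Both iNKT17 libraries lay below all 4 others, at -0.94 ± 0.28 (SE), adjusted p = 0.20 against iNKT1 and -1.05 ± 0.28 (SE), adjusted p = 0.23 against iNKT2. B2m showed the same order at 1973 and 2161 CPM in iNKT1, 2118 and 2181 CPM in iNKT2 and 1539 and 1457 CPM in iNKT17 cells (-0.46 ± 0.15 (SE), adjusted p = 0.28 and -0.52 ± 0.15 (SE), adjusted p = 0.31). Among the antiviral members, Ifih1 held 25.5 and 65.1 CPM in iNKT1, 35.6 and 33.7 CPM in iNKT2 and 0 and 0.116 CPM in iNKT17 cells. Mx1 held 20.6 and 27.1 CPM in iNKT1, 8.26 and 7.57 CPM in iNKT2 and 0.0322 and 0 CPM in iNKT17 cells. Ifit1, a cap-binding blocker of viral translation, held 11.2 and 36.5 CPM in iNKT1, 17.5 and 20.4 CPM in iNKT2 and 0.0322 and 0 CPM in iNKT17 cells. These 3 antiviral genes were at or next to 0 in both iNKT17 libraries, and DESeq2 called each of them lower there than in both other sublineages. Among the GTPases, Gbp3 showed the same, at 31.9 and 25.1 CPM in iNKT1, 11.2 and 37.7 CPM in iNKT2 and 0 and 0.0388 CPM in iNKT17 cells, and was called in the same contrasts by DESeq2. A fitted fold against a group near 0 depends on the model's prior count and is not given.

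Other members differed within a sublineage. Ifit3 held 36.3 and 48 CPM in iNKT1, 18.8 and 25.3 CPM in iNKT2 and 9.84 and 0.155 CPM in iNKT17 cells. Isg15 held 23.4 and 16.9 CPM in iNKT1, 59.9 and 26.6 CPM in iNKT2 and 20.3 and 0.0775 CPM in iNKT17 cells. Irf7 held 111 and 195 CPM in iNKT1, 96 and 102 CPM in iNKT2 and 53.1 and 0.233 CPM in iNKT17 cells. In each case the second iNKT17 library was near 0 while the first was not. A fit without the first rests on the single iNKT17 library that is near 0 for these genes, so no call of a member is drawn from it. Rsad2 was at 0 in 1 library of iNKT1, 1 of iNKT2 and both of iNKT17, with raw counts of 218 and 281 in the other 2. Iigp1 was found at 3224 and 1369 raw counts in iNKT2 cells, at 3 and 0 in iNKT1 and at 0 in both iNKT17 libraries (edgeR adjusted p = 0.16 against iNKT1 and 0.13 against iNKT17). Gbp4 held 234 and 267 CPM in iNKT1, 126 and 130.0 CPM in iNKT2 and 89 and 145 CPM in iNKT17 cells, highest in iNKT1 cells, and DESeq2 called it lower in both other sublineages. Gbp2 held 38.5 and 77.2 CPM in iNKT1, 99.3 and 86.1 CPM in iNKT2 and 60.3 and 41.1 CPM in iNKT17 cells. Igtp held 83.3 and 201 CPM in iNKT1, 107 and 113 CPM in iNKT2 and 111 and 143 CPM in iNKT17 cells. Tap1 held 264 and 234 CPM in iNKT1, 263 and 366 CPM in iNKT2 and 253 and 299.7 CPM in iNKT17 cells. Igtp and Tap1 overlapped between all sublineages, Gbp2 was highest in iNKT2 cells, and the adjusted p of these 3 was 0.72 or more in every contrast.

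Of the signalling genes, Ifng held 355 and 562 CPM in iNKT1, 4.74 and 25.9 in iNKT2 and 0.129 and 0.31 in iNKT17 cells, called in all 3 contrasts (adjusted p = 0.040, 0.0021 and 0.039). Ifngr1 held 389 and 556, 31.2 and 24.5 and 564 and 606 CPM, low in iNKT2 cells (-4.08 ± 0.32 (SE), adjusted p = 2.7e-04). Of 39 tested further interferon response genes, 1 was higher and 0 lower in iNKT2 than iNKT1 cells, 1 and 3 in iNKT17 than iNKT1, and 0 and 0 in iNKT17 than iNKT2. At an unadjusted p under 0.05 in edgeR, the counts were 2 and 2, 3 and 7, and 2 and 7 in that order. The shares of all genes called in these contrasts are given above. Markers of NK cells, which iNKT1 cells share, summed to 1622 to 1843 CPM in iNKT1, 1.52 to 18.3 in iNKT2 and 462 to 506 in iNKT17 libraries. B cell markers summed to 207 to 212, 5.90 to 15.3 and 32 to 137 CPM in the same order, and double-positive thymocyte markers to 101 to 134, 108 to 148 and 221 to 285 CPM, highest in iNKT17. Stromal and epithelial markers were 5.53 to 19.2, 129 to 152 and 64.6 to 91.2 CPM, and dendritic cell markers 4.65 to 17.9, 38.9 to 44.6 and 0 to 12.7 CPM, both highest in iNKT2. Most of that dendritic cell sum in iNKT2 was 1 gene, Ccr9, at 38.7 to 38.8 CPM. Tcf4 held 0.0724 to 5.96 CPM there, and Siglech, Flt3, Zbtb46, Xcr1 and Itgax held 0. The part of these marker lists in the differences was not tested.

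Accessible chromatin was read from 109 ATAC regions in or within 2 kb of 43 members, each region counted once (Ifi44 had none). Of these, 14 were higher and 12 lower in iNKT2 than iNKT1 cells, 9 and 17 in iNKT17 than iNKT1, and 3 and 5 in iNKT17 than iNKT2. The shares of all regions called were 38.6%, 37.1% and 8.34% of 54520, so the members' regions changed no more often than regions did in general. A replicate block assumes that the numbers of the ATAC libraries pair them, which the data cannot settle. With that block, the counts were 17 and 27, 14 and 28, and 4 and 11, where 53.5%, 53.4% and 18.5% of regions were called. In the 31 regions that overlap a promoter window, 2 were higher and 5 lower in iNKT2 than iNKT1 cells, and 2 and 7 in iNKT17 than iNKT1. None was called between iNKT17 and iNKT2 by edgeR.

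The promoter region of Ifit3 (chr19:34582614-34583694) held 47.1 and 68.6 CPM in iNKT1, 21.5 and 31 CPM in iNKT2 and 12.3 and 17.23 CPM in iNKT17 cells. iNKT1 cells were highest, with differences of -1.14 ± 0.28 (SE), adjusted p = 0.011 for iNKT2 and -1.97 ± 0.28 (SE), adjusted p = 7.5e-04 for iNKT17. The Irf7 promoter region (chr7:141265561-141266624) held 69.3 and 69.7 CPM in iNKT1, 46.2 and 48.4 CPM in iNKT2 and 41.3 and 34.8 CPM in iNKT17 cells (-0.56 ± 0.17 (SE), adjusted p = 0.032, and -0.87 ± 0.18 (SE), adjusted p = 0.0042). The Irf1 promoter region (chr11:53769601-53770655), which spans the GAS core shown above, held 122 and 115 CPM in iNKT1, 87.9 and 100.1 CPM in iNKT2 and 83 and 75.9 CPM in iNKT17 cells, and was lower in iNKT17 than iNKT1 cells (-0.57 ± 0.18 (SE), adjusted p = 0.029). At B2m (chr2:122147267-122148191) the values were 85.7 and 102 CPM in iNKT1, 51.4 and 65.4 CPM in iNKT2 and 50.7 and 65 CPM in iNKT17 cells (-0.69 ± 0.21 (SE), adjusted p = 0.029, and -0.70 ± 0.21 (SE), adjusted p = 0.028). B2m thus had its highest accessibility in iNKT1 cells, while its RNA was as high in iNKT2.

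Some members opened in the other direction. The Oas1a promoter region (chr5:120907139-120907672) held 2.07 and 1.67 CPM in iNKT1, 7.73 and 3.78 CPM in iNKT2 and 5.12 and 4.21 CPM in iNKT17 cells (1.62 ± 0.40 (SE), adjusted p = 0.012, and 1.31 ± 0.40 (SE), adjusted p = 0.029), lowest in iNKT1. Of the regions in Iigp1, the one with the lowest p held 0.706 and 0.528 CPM in iNKT1, 4.61 and 3.94 CPM in iNKT2 and 1.12 and 0.763 CPM in iNKT17 cells, highest in iNKT2 (2.77 ± 0.46 (SE), adjusted p = 0.0021 against iNKT1, and -2.20 ± 0.45 (SE), adjusted p = 0.019 for iNKT17 against iNKT2). A region within Gbp5 (chr3:142504442-142505177) held 0.754 and 0.528 CPM in iNKT1, 0.973 and 0.788 CPM in iNKT2 and 6.18 and 12 CPM in iNKT17 cells, highest in iNKT17 (3.80 ± 0.45 (SE), adjusted p = 2.9e-04). A region next to Oas3 (chr5:120779065-120779786) fell from iNKT1 over iNKT2 to iNKT17 at 23 and 23.4 CPM in iNKT1, 9.16 and 8.66 CPM in iNKT2 and 4.97 and 4.01 CPM in iNKT17 cells, the one region among those named that was called in all 3 contrasts (-1.38 ± 0.23 (SE), adjusted p = 0.0022, -2.37 ± 0.24 (SE), adjusted p = 1.5e-04, and -0.99 ± 0.24 (SE), adjusted p = 0.034 for iNKT17 against iNKT2). The promoter regions of Isg15, Igtp, Tap1 and Gbp2 were not called in any contrast. The replicate block changed 4 calls among these promoter regions. With it, Gbp2 was called in iNKT2 and in iNKT17 against iNKT1 (adjusted p = 0.019 and 0.015), Irf1 in iNKT2 against iNKT1 (adjusted p = 0.023) and Ifit3 in iNKT17 against iNKT2 (adjusted p = 0.0020).

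**Figure D4:**
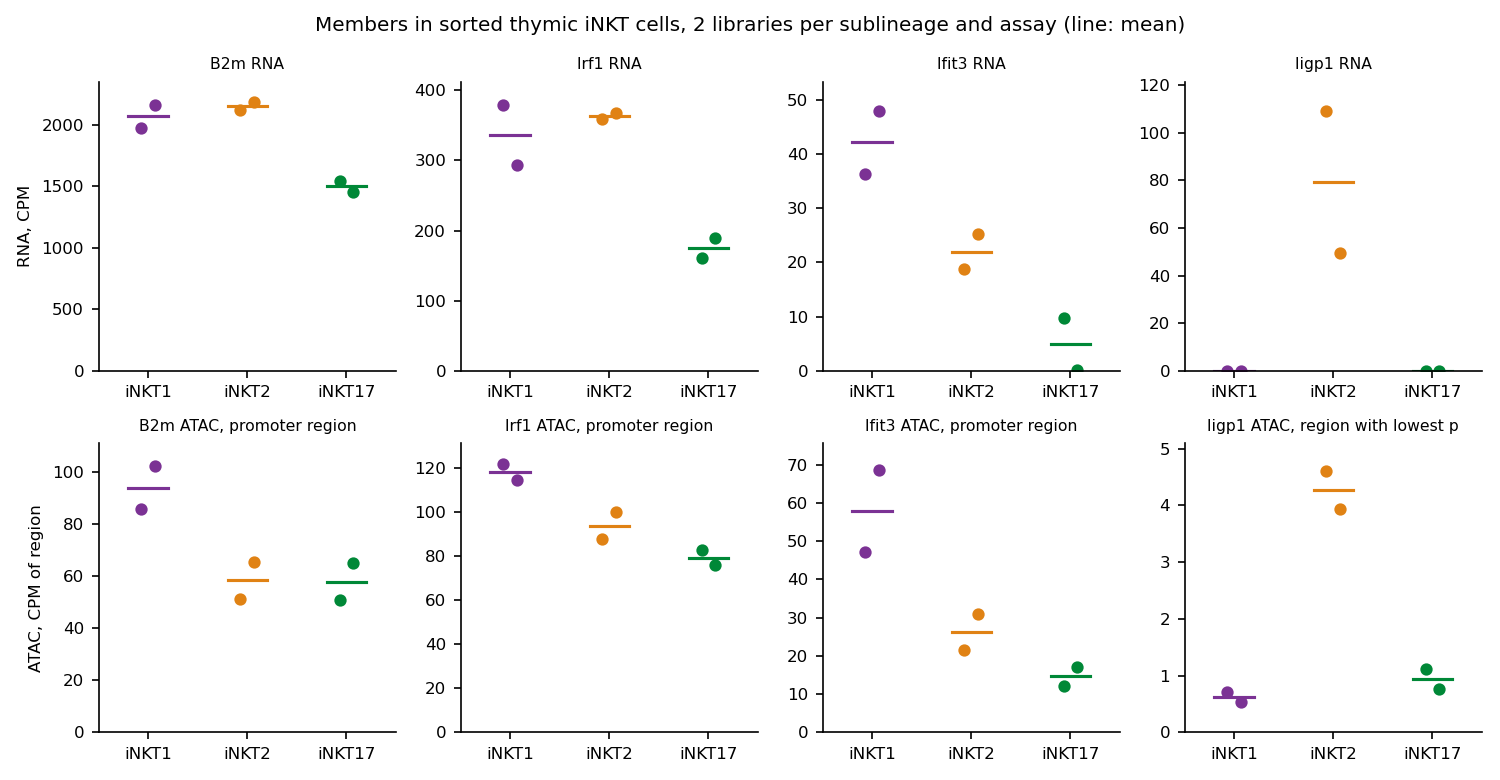
RNA (top, CPM) and ATAC signal of 1 region (bottom, CPM of the region) for B2m, Irf1, Ifit3 and Iigp1 in the 3 sorted thymic sublineages, 2 libraries each as points and the mean as a line, all axes from 0. Irf1 and B2m RNA are lowest in iNKT17, Iigp1 RNA is near 0 outside iNKT2, where 1 of its regions is also most accessible, and the Ifit3 promoter region is most accessible in iNKT1.

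Single cells show how the transcripts are spread. After filtering, 138 and 144 iNKT cells of the 2 thymi (A and B) held 825760 and 893603 UMIs, with a median of 5310 and 5818 per cell and no barcode shared. The 2 mice are 1 group, so no test was made, and the exact Poisson intervals cover counting error only. Antiviral members summed to 1035 (95% interval 967 to 1107) UPM (UMIs per 1000000 UMIs of the cells) in A and 1036 (95% interval 971 to 1105) in B. GTPase/MHC members other than B2m summed to 345 (95% interval 306 to 388) and 375 (95% interval 336 to 417), and B2m to 3059 (95% interval 2941 to 3181) and 3264 (95% interval 3147 to 3385). The antiviral sums of the mice lay within these intervals of each other. Thinned to 2000 UMIs per cell, which left out 3 and 5 cells, the antiviral sums were 985 and 1011 UPM.

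Isg15 was detected in 28 of 138 cells (20.3%, exact 95% interval 13.9 to 28.0%) of thymus A and 44 of 144 cells (30.6%, exact 95% interval 23.2 to 38.8%) of thymus B, at 98.1 UPM (95% interval 77.9 to 122) and 116 UPM (95% interval 95.1 to 141). Near-empty barcodes, with up to 50 UMIs, held Isg15 at 63.3 and 103 UPM, so a single Isg15 UMI can be free RNA. A few cells held many more. In each thymus 6 cells had 5 or more Isg15 UMIs, a minimum chosen after seeing the data. They held 4.75% of all UMIs in thymus A and 5.65% in B, but 50.6% and 51.9% of Isg15, which chose them.

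Several other members, which did not choose these cells, had a larger share of their UMIs in them, as a description. The 4 genes given next were picked with their values known. The 6 cells held 40.9% and 71% of Ifit3 UMIs (A and B), 80% and 50% of Usp18, 41.4% and 46.2% of Ifit1 and 25.6% and 31.8% of Irf7. All antiviral members but Isg15 reached 20.2% and 20.2%, and the GTPase/MHC members but B2m 14.4% and 14.9%. B2m, at 6.14% and 6.17%, was close to the cells' share of all UMIs. Some members were not gathered there in both thymi. Irf9 had 12.9% and 4.35% of its UMIs in the 6 cells, Tap1 8.51% and 5.13%, Slfn2 13.1% and 5.43% and Gbp4 12.5% and 0%, while none of the 4 Gbp3 and 2 Gbp5 UMIs of thymus A lay there. With a minimum of 3 Isg15 UMIs, 11 and 8 cells held 29.8% and 21.3% of the other antiviral UMIs and 9.70% and 6.85% of all UMIs. None of the 12 cells held a UMI of the B cell, myeloid, dendritic, erythroid or double-positive thymocyte markers, and all held T cell markers. Stromal and epithelial markers were found in 2 of 6 cells (51 UPM, against 25.4 in the other cells) in thymus A and 2 of 6 cells (39.6 UPM, against 36.8 in the other cells) in B. NK cell markers, which iNKT1 cells share, were found in 3 of 6 cells (434 UPM, against 678 in the other cells) and 3 of 6 cells (317 UPM, against 472 in the other cells). The part of these markers was not tested. No doublet caller was run.

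**Figure D5:**
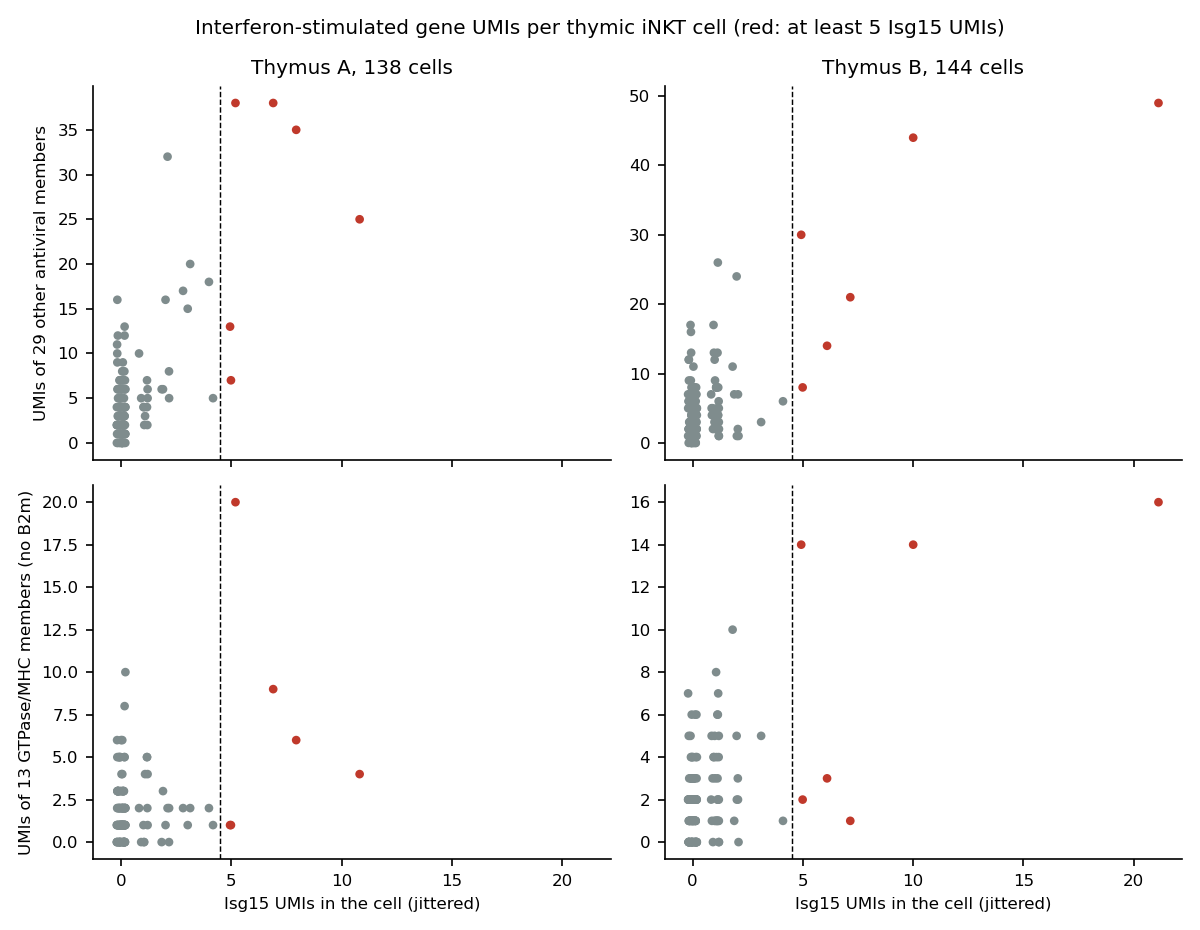
UMIs of the 29 other antiviral members (top) and of the 13 GTPase/MHC members other than B2m (bottom) against Isg15 UMIs in each cell of thymus A (left) and B (right), jittered sideways, with cells of at least 5 Isg15 UMIs in red and the dashed line at that minimum. Most cells sit at 0 or 1 Isg15 UMI, and 8 of the 12 red cells lie at 20 or more other antiviral UMIs.

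Clustering on genes other than the members gave 4 clusters. Cluster 0 (88 cells) was iNKT1-like and cluster 3 (47 cells) iNKT17-like, each with 6 of its markers among its top 10 genes. Cluster 1 (74 cells, led by Igfbp4) was iNKT2-like, with 4 markers there. Cluster 2 (73 cells, led by Izumo1r) had 1 marker of iNKT1 and 1 of iNKT2 cells there and is unnamed. Antiviral members summed in thymus A and B to 837 (722 to 966) and 1107 (941 to 1294) UPM in cluster 0 (95% intervals in brackets), 1031 (909 to 1164) and 929.8 (835 to 1032) in cluster 1, 1221 (1091 to 1362) and 1347 (1193 to 1517) in cluster 2 and 997 (796 to 1233) and 839 (706 to 990.2) in cluster 3. The value of cluster 2 was the highest in both thymi, but its interval overlapped those of clusters 1 and 3 in thymus A and of cluster 0 in thymus B. The cells with 5 or more Isg15 UMIs fell into clusters 0, 1, 2 and 3 as 1, 0, 4 and 1 in thymus A and 1, 3, 2 and 0 in thymus B, so they were not of 1 cluster. In cluster 2 they held 116 of 322 antiviral UMIs in thymus A and 105 of 274 in B. Without them, a choice made after seeing the data, the antiviral sums of clusters 0, 1, 2 and 3 were 652, 1031, 879 and 608 UPM in thymus A and 929.9, 754, 927 and 839 in B, and cluster 2 was highest in neither. GTPase/MHC members other than B2m summed to 466 (388 to 557) and 477 (387 to 582) in cluster 2, with 234 to 366 UPM in the other clusters, and without these cells to 405 and 367. At a resolution of 0.4 there were 3 clusters of 146, 90 and 46 cells, the first led by Izumo1r, and their antiviral sums were 1129, 839 and 997 UPM in thymus A and 1085, 1071 and 834 in B.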

How the data were processed

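Bulk RNA was sequenced from 6 sorted iNKT and 30 donor T cell libraries, accessible chromatin from 6 iNKT libraries and single cells from 2 thymi. The values used are the read counts per gene or ATAC region and the UMI counts per cell as the authors deposited them, not normalized. Per the submitters' processing notes, the tools were STAR 2.5.4, kallisto, Bowtie2, SAMtools, MACS2, bedtools 2.27.1, HOMER 4.9.1, FastQC 0.11.7, MultiQC, DESeq2 1.22.2, Cell Ranger 2.1 and Seurat 3, with the builds mm10 and GRCm38, and no tool is tied there to a table. Per the labels' protocols, the iNKT RNA kit was a stranded TruSeq kit and the donor kit SMARTer with Nextera XT, and whether counting used strand is not given in the sources used here.

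Here edgeR 4.0.16 (TMM, expression filter by group, robust quasi-likelihood test, R 4.3.3, limma 3.58.1) was fitted over all genes or regions: 6 iNKT RNA libraries, 6 ATAC libraries, 15 libraries per lineage, and all 30 donor libraries for CD8 against CD4. P-values were Benjamini-Hochberg adjusted over all features, with calls at 0.05. DESeq2 1.42.0, other size factors, no filter, only the compared groups and leaving out each library were the alternatives, and the fit without 3 CD4 libraries was added after seeing the data. Members, gene lists and comparisons were chosen with earlier results of these data known. Every member could be named. Isg15, Ifit3, Irf7, Irf1, Gbp2, Igtp, Tap1 and B2m were set for reporting, with up to 4 called members per role by lowest p. These named genes are given for days, lineages and sublineages, but only in part for the treatment contrasts. Signalling genes follow fixed lists, of which some genes are not reported here, and other names were chosen after their values were seen. ATAC regions were tied to members by RefSeq gene spans with a margin of 2 kb. Samples were grouped by their titles, 4 CD4-split iNKT1 libraries were not analysed here, and the 2 experiments the donor titles name are not in the columns, so they could not be a term. No column lacked a sample (0 unmatched).

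Cells had at least 1000 UMIs and 500 genes and under 10% mitochondrial UMIs (scanpy 1.11.5), were clustered at a resolution of 0.8 without the members, and passed no doublet caller. Same-numbered ATAC libraries deviated together (correlations 0.76, 0.63 and 0.63), and the number was taken to pair them in the replicate block. With 2 libraries per sublineage the deviations mirror each other, so these correlations alone cannot show that the libraries are paired. The fits were first tested on simulated data.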

Additional observations from a re-analysis of the deposited data

Results flagged for a closer look

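For 7 members the day 7 change differed between CD8 and CD4 cells by the interaction test in edgeR at an adjusted p under 0.05. The values are CD8 minus CD4 differences of log2 changes, each followed by the changes themselves. Oas1a differed by 1.04, with 2.70 in CD4 and 3.77 in CD8 cells. Oas3 differed by -2.58, with 2.91 in CD4 and 0.35 in CD8 cells. Slfn5 differed by -2.01, with 0.09 in CD4 and -1.90 in CD8 cells. Tgtp1 differed by -1.78, with -0.68 in CD4 and -2.45 in CD8 cells. For Oasl2 the difference was -1.30, from 1.46 in CD4 and 0.18 in CD8 cells. For Irf1 it was -0.83, from 0.29 in CD4 and -0.51 in CD8 cells. For Gbp2 it was -0.71, from 0.67 in CD4 and -0.01 in CD8 cells.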

How the results depend on the processing

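In a tally of log2 changes recomputed for single members, 2186 kept their side of the threshold, 22 gained a call, 95 lost one and 0 reversed. The tally does not cover every alternative, since the DESeq2 calls listed next for iNKT RNA and the treatments are together more than 22. Counts of called members moved by over 1.5 times as follows, with the cause not tested. For iNKT RNA, where edgeR called 0, the counts were 1 without the low-count filter, 1 with only the compared groups and 2 by DESeq2 for iNKT2 against iNKT1, 3 without the filter and 8 by DESeq2 for iNKT17 against iNKT1, and 2 and 9 for iNKT17 against iNKT2. For member regions, DESeq2 called 13 in iNKT17 against iNKT2, and promoter windows alone, a choice made after seeing the data, held 7, 9 and 0 called of fewer regions. For the treatments against untreated, DESeq2 called 1, 2 and 1 members in CD4 and 2, 7 and 2 in CD8 cells with iNKT1, iNKT2 and iNKT17. With only the compared groups, 2 members were called for CD8 against CD4 at day 0 and 2 for the interaction, and without the 3 CD4 libraries that stood apart, 5 at day 0.

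Leaving out 1 library gave 19 to 25 called members for the CD4 day 7 change, 18 to 24 for CD8, 4 to 9 and 7 to 14 for CD8 against CD4 at day 0 and day 7, 5 to 7 for the interaction, 0 to 1 for CD8 cells with iNKT2 and 0 for the other treatment contrasts. For iNKT RNA it gave 0 to 2, 0 to 3 and 0 to 6 members, and for ATAC 10 to 17, 12 to 24 and 2 to 7 regions, in the order iNKT2 against iNKT1, iNKT17 against iNKT1 and iNKT17 against iNKT2. Where this left 1 library in a group, it was assumed to vary like the others.

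With the replicate block, member regions called rose to 44, 42 and 15 in that order, and 0 iNKT RNA members were called in each contrast. The iNKT RNA numbers gave no sign of pairing (correlations -0.03, 0.05 and -0.02). For untreated CD4 and CD8 cells the correlations were mixed (-0.29, 0.50 and 0.40), so whether the numbers pair them was left undecided. There the block in a fit of the 6 compared libraries called 18 members. The correlations of same-numbered CD4 and CD8 libraries were 0.03, 0.23 and 0.36 with iNKT1, 0.54, 0.63 and 0.30 with iNKT2 and 0.63, -0.02 and 0.62 with iNKT17, where no comparison of the lineages was made. The titles give CD4 and CD8 samples of day 7 the same experiment code and number, but the columns used here do not carry those codes. No paired analysis was possible at day 0 because the CD8 columns of day 0 carry no numbers of their own. The alternative with the 4 CD4-split iNKT1 libraries was not run.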
